A study of Mus musculus with 6 samples.

Results

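RNA levels of 37 genes of glycolysis, pyruvate and lactate handling were examined in C17.2 neural stem cells (NSCs) after hypoxia/reoxygenation (H/R). The genes were chosen by name: glucose uptake and trapping, the glycolytic enzymes with their isozymes, lactate dehydrogenase and lactate transport, mitochondrial pyruvate entry, and the pyruvate dehydrogenase complex with its kinases and a phosphatase. All 37 had a row among the 14665 genes of the gene table. The rule itself uses no measured value, but the list was drawn up with earlier results of these data known. C17.2 is an immortalised mouse cell line derived from cerebellum, labelled WT in every sample. The control group (n = 3) was kept in standard oxygen, and the H/R group (n = 3) was held for 12 h under 5% oxygen and then returned to standard oxygen for 48 h. All values are therefore from the reoxygenated state, and no library was taken during hypoxia. How long the controls were in culture is not given in the sources used here. Whether replicate libraries stem from different cultures is not stated either. The p-values reflect only how far these libraries differ, which may be technical.

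Glycolysis splits glucose into pyruvate in the cytosol. Pyruvate is then either reduced to lactate, which leaves the cell through monocarboxylate transporters, or carried into mitochondria, where the pyruvate dehydrogenase complex turns it into acetyl-CoA. When oxygen is short, the hypoxia-inducible factors raise transcription of many glycolytic genes and of Pdk1, whose kinase switches pyruvate dehydrogenase off, and normal oxygen ends their stabilisation. Most steps are catalysed by alternative isozymes encoded by separate genes, so that the isozyme in use can change while the step itself stays present.

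The control libraries held 7267809 to 8371882 counts over genes and the H/R libraries 15639751 to 16830389, so that the median H/R library was 1.931 times as deep. Of 8 neural stem cell markers named, 5 were in the table and all 5 were at or above 1 CPM (counts-per-million of the scaled library) in every library. Nes, the intermediate filament gene of neural progenitors, rose, with a log2 fold change of 0.76, and Sox9 fell by 2.19 on the log2 scale with overlapping groups, whereas Vim, Sox2 and Msi1 did not pass. The summed marker level was 1410 to 1510 CPM in controls and 1643 to 1734 CPM after H/R. The fibroblast markers Col1a1 and Col1a2 were abundant in both groups, with a summed list level of 4476 to 6273 CPM against 4223 to 5425 CPM, and Pdgfra of that list rose. The astrocyte marker Gfap and the neuronal marker Tubb3 were at or near 0, whereas Map2 of the neuron list fell. The part of these marker changes in the results below was not tested. In bulk RNA, fewer cells of a type and less RNA per cell cannot be told apart.

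Most of the members that passed the test fell after H/R. Of the 37 members, 34 passed the filter on low counts. The remaining 3, Slc2a3, Eno2 and Slc16a3, were at or near 0 in both groups. With Benjamini-Hochberg adjustment over all 11104 genes tested and a threshold of 0.05, edgeR's quasi-likelihood test gave the following counts: 13 of the 34 fell, 1 rose and 20 did not pass. The 13 that fell are 38.2% of the tested members, whereas 19% of all tested genes fell. The single gene that rose is 2.94% of the tested members, against 18.8% of all tested genes. The median log2 fold change (H/R over control) was −0.33 over the tested members and 0.01 over all tested genes. The groups did not overlap in 18 of the 34 members (52.9%), close to the 49.7% of all tested genes, with 16 lower and 2 higher after H/R. Of the members that passed, only Aldoc, Slc2a1 and Hk2 fell by 2-fold or more. Among all 11104 tested genes, 538 were called lower by 2-fold or more. Ldhb was 2.09-fold lower but did not pass.

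**Figure D1:**
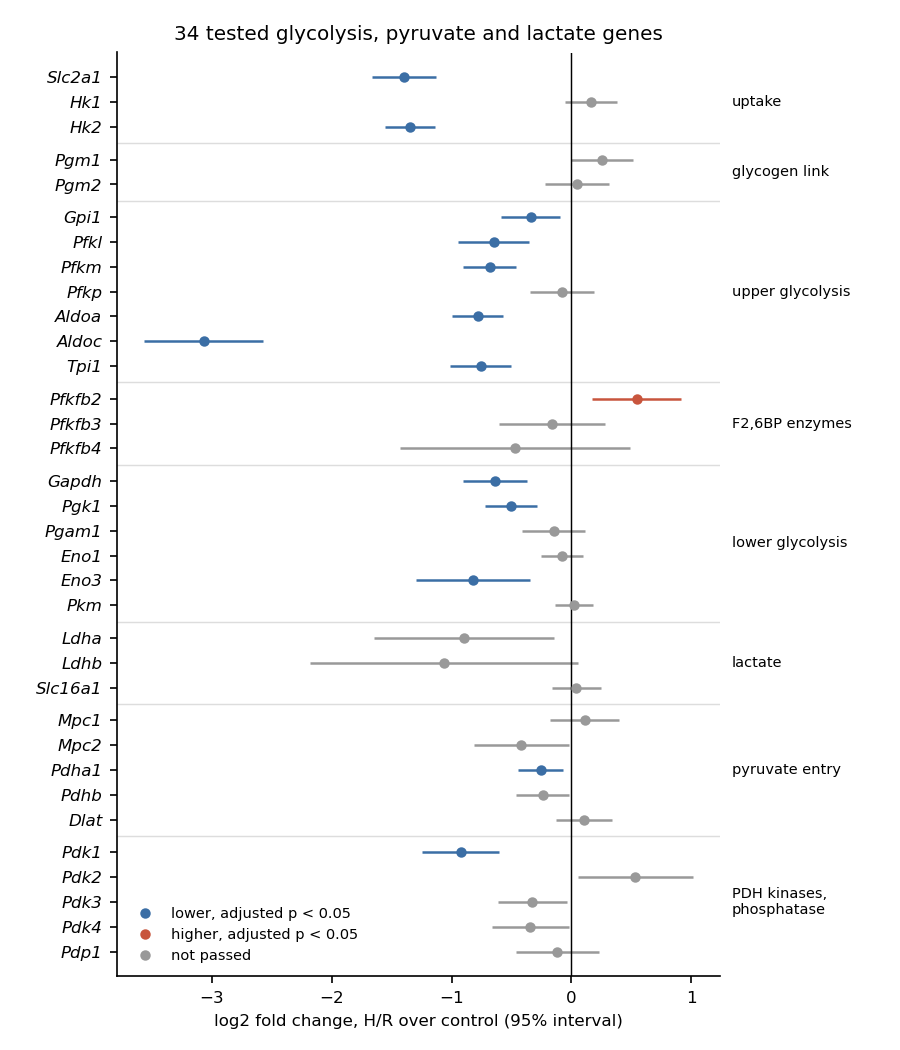
Log2 fold change (x axis, H/R over control) of each of the 34 tested members, with its 95% interval from edgeR's quasi-likelihood fit, grouped by role from glucose uptake at the top to the pyruvate dehydrogenase kinases at the bottom. The 13 genes that fell are blue, Pfkfb2, which rose, is red, and the 20 that did not pass are grey; Aldoc lies farthest to the left at −3.07.

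The count of rising members depended on the scaling between libraries. TMM scaling (edgeR's trimmed mean of M-values) sets the bulk of genes to no change. With raw library totals alone, the median of all tested genes moved from 0.01 to 0.22 and the share of all calls that were higher from 49.7% to 74.4%. Under that setting 7 members rose and 11 fell, the members' median log2 fold change was −0.12, and 38.9% of the members' calls were higher in place of 7.14%. Changes below are relative to the TMM scale. As a share of a library's total, all members together came to 0.5755%, 0.5951% and 0.5534% for the controls. After H/R they came to 0.5565%, 0.5378% and 0.5198%, overlapping the controls.

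Promoter sequence was available from RefSeq (GRCm38.p6) for 35 of the 37 members, in 52 windows reaching from 250 bases before to 50 bases after a transcript start. The letters ACGTG, a form of the core of the hypoxia response element to which hypoxia-inducible factors bind, were searched on both strands. Their reverse complement is CACGT, and both lie within CACGTG, the E-box read by MYC and USF factors. The other form of the core, GCGTG, was not searched, and the core means ACGTG alone in what follows. The core was present in 24 of the 52 windows (46.2%), against 24.3% of the 13954 windows of genes in the table and 19.6% of all 32851 windows. By gene, 20 of the 35 members (57.1%) had it in at least 1 window, as against 28.1% of genes in the table, and in 6 of those 20 some match was a CACGTG. Among the 13 members that fell, 7 had the core (53.8%), and among the 19 with a window that did not pass, 11 had it (57.9%). The share was close to that of all members in both sets. Counting only matches before the start, the core was in 5 of the 13, 10 of the 19 and 17 of all 35. The stretches below show the core in capitals, 5′ to 3′ on the transcribed strand, each lying before the start of 1 RefSeq transcript. They cover the 5 fallen members with a match before the start, Pfkfb2, which rose, and Ldha and Slc16a1, which did not pass.
Slc2a1 (chr4:119108689-119108733, plus strand): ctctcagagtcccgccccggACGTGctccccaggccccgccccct
Hk2 (chr6:82774482-82774700, minus strand): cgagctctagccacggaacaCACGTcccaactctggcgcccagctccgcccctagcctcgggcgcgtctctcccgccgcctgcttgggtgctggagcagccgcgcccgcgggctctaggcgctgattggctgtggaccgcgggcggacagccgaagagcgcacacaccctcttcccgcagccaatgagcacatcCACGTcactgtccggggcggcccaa
Pfkm (chr15:98092433-98092478, plus strand): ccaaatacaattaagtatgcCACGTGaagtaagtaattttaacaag
Aldoa (chr7:126799356-126799400, minus strand): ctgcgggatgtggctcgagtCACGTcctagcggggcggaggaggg
Pgk1 (chrX:106186930-106186993, plus strand): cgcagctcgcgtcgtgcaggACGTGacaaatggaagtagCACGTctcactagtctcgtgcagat
Ldha (chr7:46845639-46845794, plus strand): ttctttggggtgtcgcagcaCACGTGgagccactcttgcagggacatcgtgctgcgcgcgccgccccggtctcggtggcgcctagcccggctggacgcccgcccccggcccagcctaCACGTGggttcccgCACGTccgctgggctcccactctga
Slc16a1 (chr3:104638444-104638489, plus strand): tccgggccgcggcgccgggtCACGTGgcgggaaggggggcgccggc
Pfkfb2 (chr1:130715822-130715863, minus strand): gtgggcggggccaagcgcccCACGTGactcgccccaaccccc
By GENCODE vM21 the stretches of Aldoa, Ldha and Pfkfb2 lie within the gene, before the start of an inner transcript and outside exons, and 23 of the 45 bases of the Slc2a1 stretch lie in its annotated exon, where the core spans the annotated start. Pdk1 had no ACGTG match in either of its windows, and in Aldoc and Gapdh the match lay after the start.

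Glucose uptake and trapping held 2 of the 3 members that passed and fell by 2-fold or more. Slc2a1 (chromosome 4: 119108711-119137983, plus strand, GRCm38) encodes GLUT1, a widely expressed basal glucose transporter. It stood at 122, 152 and 135 CPM in the control libraries and at 55.2, 55.7 and 44.1 CPM after H/R. The highest H/R library was thus well below the lowest control. The mean fell from 136 ± 15.0 to 51.7 ± 6.53 CPM (SD, n = 3), a log2 fold change of −1.40 (SE 0.12) with an adjusted p of 2.6e-06 in edgeR's quasi-likelihood test. The neuronal transporter gene Slc2a3 (GLUT3) was counted 8 times in 1 control library, 2 times in 1 H/R library and not at all in the other 4.

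Hexokinase phosphorylates glucose and so keeps it in the cell. Hk2, the inducible isozyme (chromosome 6: 82725025-82774454, minus strand), stood at 138, 142 and 157 CPM in controls and at 55.9, 57.2 and 58.0 CPM after H/R. The H/R libraries lay within 3 CPM of each other, far under all controls. The log2 fold change was −1.35 (SE 0.10), with an adjusted p of 5.59e-07 in edgeR's quasi-likelihood test. Hk1, the constitutive isozyme, stood at 171, 186 and 219 CPM in controls and at 221, 207 and 218 CPM after H/R. These groups overlapped, and Hk1 did not pass (log2 fold change 0.16, 95% interval −0.05 to 0.38, adjusted p = 0.22). Without control replicate 3, the highest control for Hk1, it passed as higher at 0.26 (adjusted p = 0.038 by the same test), and with raw library totals it passed at 0.38 (adjusted p = 0.00771). Summed over both genes, hexokinase RNA was 309, 328 and 376 CPM in controls and 277, 264 and 276 CPM after H/R. These sums did not overlap on the TMM scale, but with raw library totals they did.

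The phosphoglucomutases, which link glucose 6-phosphate to glycogen, did not pass. The gene named Pgm1 in the table is Pgm2 in GENCODE vM21, and the reverse holds for the gene named Pgm2. By the table's names, Pgm1 had means of 45.5 and 54.2 CPM in control and H/R (log2 fold change 0.25) and Pgm2 means of 51.4 and 53.2 CPM (0.05). Pgm1 passed as higher with raw library totals (0.47) and with length and GC offsets (0.31, adjusted p = 0.0469 in edgeR's quasi-likelihood test). Of the Pgm2 exons, 13.63% overlap another gene on the opposite strand, and Pgm2 turned to −0.03 without control replicate 3.

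**Figure D2:**
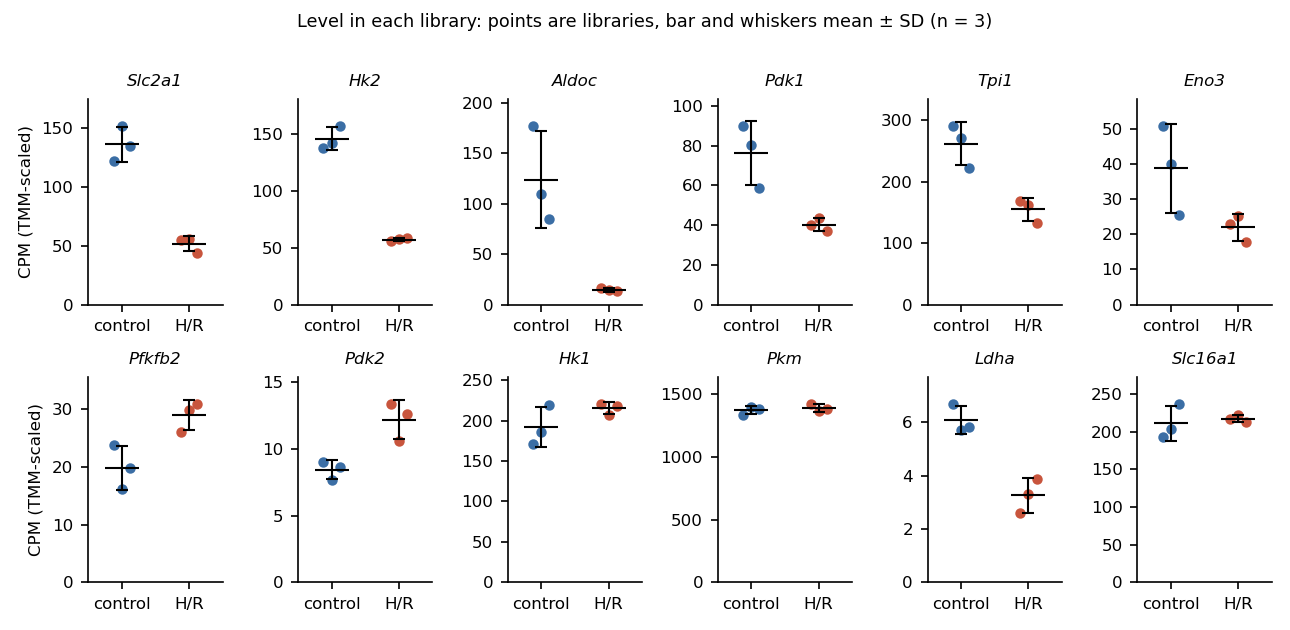
CPM on the TMM scale (y axis, from 0) of 12 members in each control and H/R library; points are libraries and the bar with whiskers is the mean ± SD (n = 3). Slc2a1, Hk2, Aldoc, Pdk1, Tpi1, Eno3 and Ldha lie lower in all H/R libraries than in all control libraries, Pfkfb2 and Pdk2 lie higher, and Hk1, Pkm and Slc16a1 overlap.

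In upper glycolysis 6 of the 7 genes fell, against 19% of all tested genes. Aldoc, the aldolase isozyme typical of brain and astrocytes (chromosome 11: 78322968-78327781, plus strand), changed most of all members. Its level was 177, 109 and 85.2 CPM in the control libraries and 16.9, 14.3 and 13.1 CPM after H/R. The controls spread over about a 2-fold range, and even the lowest of them was far above every H/R library. The log2 fold change was −3.07 (SE 0.23), or 8.40-fold lower, with an adjusted p of 7.45e-07 in edgeR's quasi-likelihood test. Over all alternatives its log2 fold change lay between −3.28 and −2.72.

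Aldoa, the ubiquitous aldolase and the more abundant of the pair, stood at 641, 703 and 727 CPM in controls and at 434, 425 and 344 CPM after H/R. All H/R libraries were lower, with a log2 fold change of −0.78 (SE 0.10). The sum of both aldolases was 818, 812 and 812 CPM in controls, although the Aldoc share differed among those libraries, and 451, 440 and 357 CPM after H/R. The mean of the sum after H/R was thus 0.511 of the control mean.

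Phosphofructokinase commits sugar to glycolysis and is encoded by 3 genes. The liver-type gene Pfkl fell from 162 to 103 CPM (log2 fold change −0.65, adjusted p = 0.00216) and the muscle-type gene Pfkm from 102 to 63.6 CPM (−0.68, adjusted p = 1.63e-04, edgeR's quasi-likelihood test). Pfkl stood at 185, 161 and 139 CPM in controls and at 121, 103 and 85.3 CPM after H/R, so the groups did not overlap. The platelet-type gene Pfkp stood at 54.0, 57.7 and 47.3 CPM in controls and at 50.4, 54.2 and 46.0 CPM after H/R and did not pass (−0.08, 95% interval −0.34 to 0.19). With raw library totals Pfkp was at 0.13.

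Tpi1, triose phosphate isomerase, fell from 291, 272 and 223 CPM to 169, 163 and 133 CPM (log2 fold change −0.76). Gpi1, glucose-6-phosphate isomerase, had means of 319 and 252 CPM and passed with a log2 fold change of −0.34 (adjusted p = 0.0304 in edgeR's quasi-likelihood test), although its groups overlapped. Its call was lost without control replicate 2 (adjusted p = 0.142), control replicate 3 (0.0591), H/R replicate 1 (0.0671) or H/R replicate 3 (0.131) and with raw library totals (0.388). Part of the exons of Gpi1, 11.48%, overlaps Gm26762 on the opposite strand, and the strand setting of the counting is not given in the sources used here.

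The bifunctional Pfkfb enzymes make and break fructose 2,6-bisphosphate, the strongest activator of phosphofructokinase. Pfkfb2, known from heart, was the only member that rose. It stood at 23.7, 16.1 and 19.8 CPM in controls and at 26.0, 29.9 and 30.95 CPM after H/R. The groups did not overlap, but the lowest H/R and the highest control library were close. The log2 fold change was 0.54 (SE 0.17, adjusted p = 0.0256 in edgeR's quasi-likelihood test). The call was lost without control replicate 2 (adjusted p = 0.109), H/R replicate 2 (0.0837) or H/R replicate 3 (0.0886), and 24.32% of the 75-base stretches of its transcripts also occur in transcripts of another gene. Pfkfb3, the kinase-rich isozyme known as induced by hypoxia, had means of 12.0 and 10.8 CPM and Pfkfb4 means of 3.89 and 2.81 CPM, and neither passed. The sign of Pfkfb3 depended on the scaling (−0.16, and 0.05 with raw library totals).

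In lower glycolysis 3 of the 6 tested genes fell, against 19% of all tested genes. Gapdh, glyceraldehyde-3-phosphate dehydrogenase, stood at 68.1, 57.7 and 62.3 CPM in controls and at 39.8, 44.4 and 36.7 CPM after H/R. The groups did not overlap, and the log2 fold change was −0.64 (SE 0.12, adjusted p = 0.0012 in edgeR's quasi-likelihood test). Gapdh is a reference gene in many PCR assays. Its counts are uncertain, since 80.31% of the 75-base stretches of its transcripts also occur in transcripts of 121 other genes, and such reads could be lost or split.

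Pgk1, phosphoglycerate kinase, on the X chromosome, fell from 782, 744 and 604 CPM to 482, 479 and 538 CPM (log2 fold change −0.51, adjusted p = 0.0015). These groups did not overlap, and 67.5% of its stretches are shared with other genes. Eno3, the muscle-type enolase, stood at 50.9, 40.0 and 25.6 CPM in controls and at 23.0, 25.2 and 17.8 CPM after H/R, where the lowest control and the highest H/R library nearly met. It fell by 0.82 on the log2 scale (adjusted p = 0.0103 in edgeR's quasi-likelihood test), and the call was lost without H/R replicate 3 (adjusted p = 0.0605).

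The remaining lower-glycolysis genes showed little difference. Pkm, pyruvate kinase, was the most abundant member, at 1336, 1399 and 1380 CPM in controls and 1424, 1367 and 1380 CPM after H/R. Its groups overlapped, with a log2 fold change of 0.02 and a 95% interval of −0.14 to 0.18. Eno1, the ubiquitous enolase, had means of 603 and 571 CPM (−0.08, interval −0.25 to 0.10) and Pgam1, phosphoglycerate mutase, of 172 and 155 CPM (−0.15, interval −0.41 to 0.11). With raw library totals Pkm passed as higher (0.23, adjusted p = 0.0186), and Eno1 and Pgam1 turned to 0.13 and 0.06. Shared stretches were 65.44% for Eno1 and 40.62% for Pgam1. Eno2, the neuronal enolase, had 0 to 10 counts per library.

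The lactate genes did not pass the test, with few counts for lactate dehydrogenase. Ldha, which favours the making of lactate, had only 39 to 66 counts in any library. Its level was 6.70, 5.72 and 5.84 CPM in controls and 2.58, 3.33 and 3.88 CPM after H/R. The groups did not overlap, and the log2 fold change of −0.90 (95% interval −1.65 to −0.15) had an adjusted p of 0.058 in edgeR's quasi-likelihood test. It passed by DESeq2 (adjusted p = 0.0345) and by edgeR's exact test (0.022), and its adjusted p was between 0.022 and 0.185 over all alternatives. Of the 75-base stretches of its transcripts, 5.23% also occur in other genes' transcripts, and of the 31-base stretches 34.17%. Ldhb had means of 3.50 and 1.67 CPM (−1.06, adjusted p = 0.124 by the quasi-likelihood test). Slc16a1, the lactate transporter MCT1, stood at 193, 203 and 237 CPM in controls and at 217, 222 and 213 CPM after H/R, within the control range (0.04, 95% interval −0.16 to 0.25). It passed as higher with raw library totals (0.26, adjusted p = 0.04) and turned to −0.02 without control replicate 1. Slc16a3, the exporter MCT4 that hypoxia is known to induce, had 2 counts in 1 H/R library and 0 in the other 5, where a count of 0 allows up to 3 counts.

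Of the genes for pyruvate entry and the dehydrogenase complex, 1 of 5 fell, near the 19% of all tested genes. Pdha1, the catalytic E1 alpha subunit, stood at 262, 299 and 273 CPM in controls and at 225, 230 and 244 CPM after H/R. The groups did not overlap, yet the difference was small, at −0.26 on the log2 scale (adjusted p = 0.0332 in edgeR's quasi-likelihood test). The call was lost without control replicate 2 (adjusted p = 0.137), H/R replicate 1 (0.134) or H/R replicate 2 (0.12) and with raw library totals (0.725), and 16.15% of its exons overlap Map3k15 on the opposite strand. Pdhb, the E1 beta subunit, had a log2 fold change of −0.24 (adjusted p = 0.0789) and passed without control replicate 3 (0.0385). Dlat, the E2 acetyltransferase, was at 0.10 and passed as higher with raw library totals (0.32, adjusted p = 0.0284). Mpc1 and Mpc2, which form the mitochondrial pyruvate carrier, had log2 fold changes of 0.11 and −0.42 and did not pass. Of the Mpc1 exons, 23.05% overlap another gene on the opposite strand, and 24.8% of its 75-base stretches are shared.

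The kinases that switch the dehydrogenase off differed among themselves. Pdk1 (chromosome 2: 71873224-71903858, plus strand) stood at 90.1, 80.4 and 58.5 CPM in controls and at 40.3, 43.6 and 36.8 CPM after H/R. All controls were above all H/R libraries, and the log2 fold change was −0.93 (SE 0.15, adjusted p = 3.43e-04 in edgeR's quasi-likelihood test). Pdk2 lay the other way, at 9.02, 7.66 and 8.68 CPM in controls and 13.4, 10.6 and 12.7 CPM after H/R. Its groups did not overlap, but it did not pass (0.53, 95% interval 0.05 to 1.01, adjusted p = 0.0769), and it passed with raw library totals (0.75, adjusted p = 0.0154). Pdk3 and Pdk4 had log2 fold changes of −0.33 and −0.34 (adjusted p = 0.069 and 0.0854 by the quasi-likelihood test), and Pdk3 passed without control replicate 3 (adjusted p = 0.0146). The phosphatase gene Pdp1, which switches the complex on again, was at −0.12, turning to 0.10 with raw library totals. Summed over the 4 kinases, the level was 190, 189 and 156 CPM in controls and 135, 123 and 122 CPM after H/R. These sums did not overlap on the TMM scale, but with raw library totals they did.

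Shares of the isozymes within a library do not depend on the scaling between libraries. Hk2 made up 44.59%, 43.24% and 41.72% of the hexokinase counts in controls and 20.2%, 21.68% and 21.03% after H/R. This was a difference of −22.21 percentage points, with SDs of 1.44 and 0.742 points (n = 3), and −20.03 points when counts were divided by transcript length. The family totals behind these shares were 2395 to 2523 counts in controls and 4442 to 5035 after H/R. Aldoc made up 21.65%, 13.47% and 10.48% of the aldolase counts in controls and 3.742%, 3.257% and 3.659% after H/R, a difference of −11.65 points (−7.12 per length). The H/R libraries agreed closely here, whereas the controls did not.

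The Pfkp share of phosphofructokinase counts was 16.74% ± 1.079 in controls and 23.24% ± 1.84 after H/R (SD, n = 3), without overlap between groups. Among the Pfkfb genes, Pfkfb2 went from 55.21% ± 6.173 to 68.08% ± 2.03, and both Pfkfb3 and Pfkfb4 lay lower in every H/R library. Among the kinases, Pdk1 held 47.39%, 42.57% and 37.63% in controls and 29.78%, 35.43% and 30.31% after H/R. The Pdk2 share was 4.795% ± 0.7635 in controls and 9.643% ± 0.9343 after H/R. Pdk3 held 30.85%, 35.35% and 31.47% in controls and 37.18%, 35.43% and 37.29% after H/R, higher in every H/R library though the groups nearly met. The shares of Pfkl, Pfkm, Pdk4, Ldha and the enolases overlapped between groups. These shares are descriptions with no test.

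**Figure D3:**
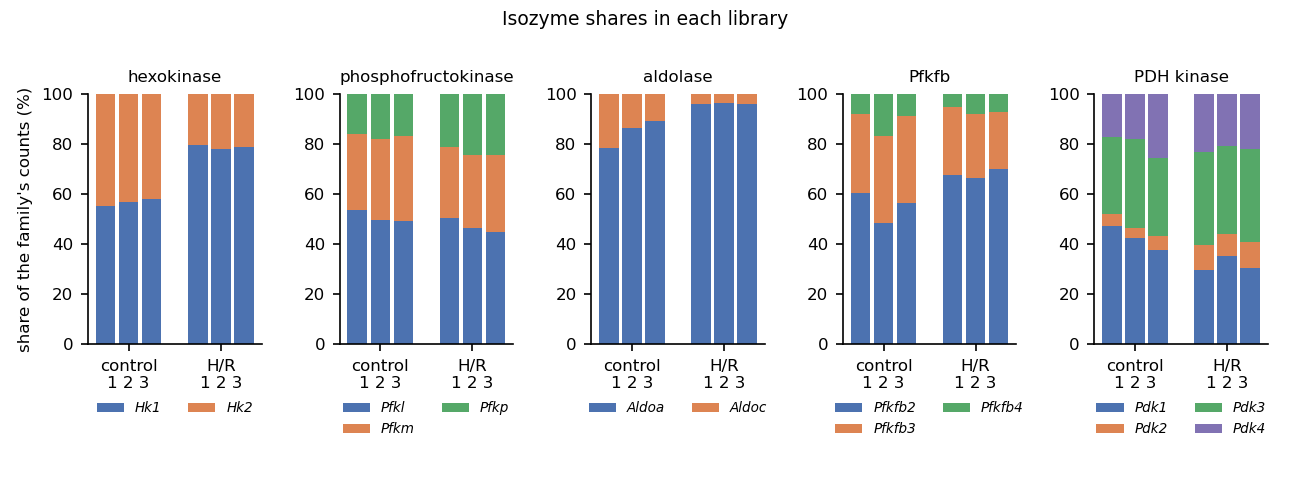
Share of each isozyme gene in the counts of its family (y axis, percent) in each control and H/R library, for hexokinases, phosphofructokinases, aldolases, Pfkfb enzymes and pyruvate dehydrogenase (PDH) kinases; each bar is 1 library. The Hk2 part averages 43.18% in controls and 20.97% after H/R and the Aldoc part 15.2% and 3.552%, while the Pfkp part is larger in every H/R library than in any control.

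Levels of different genes were compared per kilobase of the longest coding transcript. In controls the order of mean level was led by Pkm (564 CPM per kb), Aldoa (446), Pgk1 (389) and Eno1 (298). After H/R it read Pkm (572), Eno1 (282), Pgk1 (274) and Aldoa (259), where the last 3 lie close together. Aldoc dropped from place 12 (44.5 CPM per kb) to place 30 (5.30), the largest change of place among the members. Slc2a1 went from place 15 (41.8) to 20 (15.9) and Hk2 from place 19 (26.4) to 24 (10.4), both on the per-kb scale. Ldha, at 3.35 and 1.80 CPM per kb, stood near the bottom in both groups. The levels per length of genes with many shared stretches, such as Gapdh at 44.1 and 28.4 CPM per kb, carry the uncertainty given above.

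**Figure D4:**
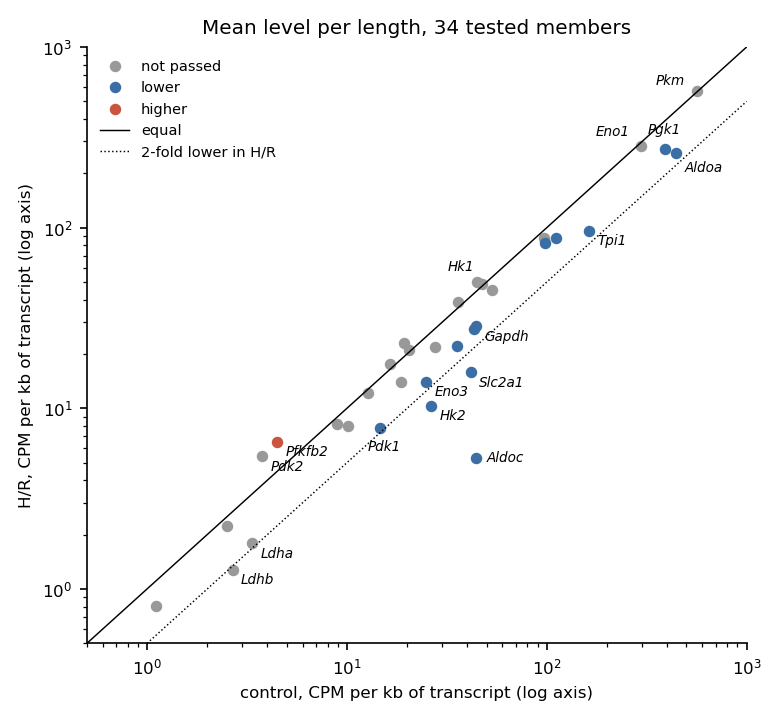
Mean level per length of the 34 tested members in control (x axis) and H/R (y axis) libraries, in CPM per kilobase of transcript on log axes; the solid line marks equal levels and the dotted line a level 2-fold lower after H/R. Aldoc, Slc2a1 and Hk2 fall below the dotted line among the called genes, and Pkm at 564 and 572 sits on the solid line.

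The controls also differed among themselves. Among the 13 members that fell, control replicate 1 had the highest control level in 8 and the lowest in 5, and control replicate 3 the lowest in 7. H/R replicate 3 had the lowest H/R level in 10 of these 13 and in 16 of all 34 tested members. The median log2 CPM of the tested members was 6.25, 6.20 and 6.05 in controls and 5.80, 5.78 and 5.57 after H/R, and these did not overlap.

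Other genes of the pathways moved in both directions. Of 69 further genes named in 4 lists, 52 were in the table and 39 were tested; 12 fell (30.8% of those tested, against 19% of all genes) and 7 rose (17.9%, against 18.8%), and the median log2 fold change was −0.08. With raw library totals the balance turned to 3 lower and 11 higher, and the lower count was 7 without control replicate 2 or H/R replicate 1 and 6 without H/R replicate 2. Among the other glycolysis and transporter genes 4 of 8 rose and 2 fell, against 18.8% and 19% of all genes. Of the 4, Hkdc1 had only 1, 6 and 5 counts in controls, and Pfkfb1 had 15, 12 and 6. Both passed the filter on low counts only through their H/R libraries, which limits their calls. Slc2a13 (8, 11 and 14 counts) was also low in controls. Pfkfb1, the liver bifunctional isozyme, rose from 1.46 to 5.53 CPM (log2 fold change 1.897), and Bsg, which encodes basigin, the chaperone of MCT1 and MCT4, fell from 933 to 524 CPM (−0.83, adjusted p = 1.2e-05 in edgeR's quasi-likelihood test). Slc16a1, the partner of basigin, was within its control range, as given above.

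Among the other pyruvate and gluconeogenesis genes 1 of 9 rose and 3 fell, against 18.8% and 19% of all genes. Pck2, mitochondrial phosphoenolpyruvate carboxykinase, fell from 190 to 79.5 CPM (log2 fold change −1.26, adjusted p = 1.19e-06 in edgeR's quasi-likelihood test). Pdpr, the regulatory subunit of the pyruvate dehydrogenase phosphatase, rose from 42.4 to 67.5 CPM (0.67). Of the 11 pentose phosphate genes tested, 3 fell and 1 rose, counts within about 1 gene of the 19% and 18.8% of all genes. H6pd rose from 91.4 to 123 CPM (0.43), and Rpe, an epimerase of the non-oxidative branch, fell from 113 to 88.2 CPM (−0.36, adjusted p = 0.0124), a call lost without control replicate 2 (adjusted p = 0.0539), H/R replicate 1 (0.0753) or H/R replicate 2 (0.0582) and with raw library totals (0.261). Of the 11 glycogen genes tested, 4 fell and 1 rose, against 19% and 18.8% of all genes. Ugp2, which makes UDP-glucose, fell from 250 to 166 CPM (−0.59), and Gbe1, the branching enzyme, rose from 78.5 to 116 CPM (0.56).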

How the data were processed

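Total RNA of C17.2 cells was depleted of ribosomal RNA and sequenced in 3 control and 3 H/R libraries. The deposited gene table holds raw counts per gene, which the authors made by trimming with cutadapt 1.9.3, alignment to mm10 with HISAT2 2.0.4 and counting with HTSeq 0.9.1. Their normalised columns (6) and their own fold changes and p-values were not used, nor were the lncRNA and circRNA tables. The annotation release and the strand setting are not given in the sources used here. The members and lists were chosen with earlier results of these data known. Groups followed the sample titles.

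Counts were analysed in R 4.3.3 with edgeR 4.0.16: filterByExpr (minimum count 10), TMM factors and the quasi-likelihood test (glmQLFit, glmQLFTest) of H/R against control with no covariate, two-sided, Benjamini-Hochberg adjusted over 11104 genes, threshold 0.05. The biological coefficient of variation was 0.144. An exact permutation of 3 against 3 libraries cannot go below 0.1 and was not used. CPM were TMM-scaled. Alternatives were DESeq2 1.42.0, edgeR's exact test, other scaling, filters, depth and libraries. Coordinates, transcript lengths and shared stretches of 75 and 31 bases came from GENCODE vM21 (GRCm38). All 37 members were named, and, from each other list, the gene of lowest adjusted p among those that rose and among those that fell. No 2 libraries of a group agreed within sampling noise. PCR duplicates cannot be told apart, so limits from counts cover counting error only.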

Additional observations from a re-analysis of the deposited data

How the results depend on the processing

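Of the 13 members that fell, 10 kept direction and call under all 15 alternative fits, namely Slc2a1, Hk2, Pfkl, Pfkm, Aldoa, Aldoc, Tpi1, Gapdh, Pgk1 and Pdk1. Leaving out each library in turn gave 11 to 14 members lower and 0 to 2 higher, a median between −0.40 and −0.24, and 6 to 12 of the other pathway genes lower and 5 to 7 higher. With raw library totals 7 members were higher, 11 and 3 of the other pathway genes were higher and lower, and the members' median was −0.12. Requiring a 2-fold change with an unadjusted p under 0.05 (edgeR's quasi-likelihood test) left 0 members higher and 3 lower. Of the other pathway genes it left 3 higher and 1 lower. Under length and GC offsets, chosen after seeing the data, 2 members were higher, Pgm1 beside Pfkfb2. Among the 31 members with under 20% of shared stretches, also chosen after seeing the data, 0 were higher, since Pfkfb2 is not among them. In that subset 11 were lower, since Gapdh and Pgk1 are not among them either. Per length, the Hk2 share differed by −20.03 and the Aldoc share by −7.12 points. Signs turned with raw library totals for Pfkp (0.13), Pfkfb3 (0.054), Pgam1 (0.065), Eno1 (0.13) and Pdp1 (0.10), and on leaving out a library for 4 genes. Over those 6 fits the range was −0.0011 to 0.032 for Pkm, −0.021 to 0.13 for Slc16a1 and −0.28 to 0.0036 for Pdp1, which turned without control replicate 1, and −0.025 to 0.14 for Pgm2, which turned without control replicate 3. None of these passed the test in either setting, except that Pkm and Slc16a1 passed with raw library totals. The causes were not tested.

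The labels do not say whether same-numbered libraries were paired. Deviations of same-numbered libraries correlated at 0.0392, 0.00417 and 0.0219 over genes, against −0.0314 to 0.00772 for the other pairs. Such small values cannot settle whether the libraries were paired. A fit with a replicate block gave 12 members lower and 1 higher, with 9 and 6 of the other pathway genes, and in that fit Pdha1 had an adjusted p of 0.0501 (edgeR's quasi-likelihood test). No other member changed its call with the block. With H/R counts thinned to the control depth, 13 members were lower and 1 higher. Ldha, Ldhb and Pfkfb4 are limited by their few counts in every library, and Slc2a3, Eno2 and Slc16a3 did not reach the filter on low counts.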
